A study of Mus musculus with 12 samples.

Results

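The genes described are the abundant transcripts of gonadal white adipose tissue (GWAT) that stood outside the deposited table of protein-coding genes. They were chosen by their level alone: each had a CPM (its count over the library total, scaled so that all genes together give the same sum in each library) averaging at least 10 over 11 libraries. Of the 55281 genes in the table of all genes, 33635 were absent from the coding table, and 109 of these 33635 passed the rule. The members comprised 61 long noncoding RNAs, 30 pseudogenes, 6 immunoglobulin constant region genes, 2 mitochondrial ribosomal RNAs, 2 small RNAs, 1 nuclear ribosomal RNA and 7 genes of other types. These last were Zrsr1, Gm47283, Gm21860 and Gm10134, which GENCODE M21 lists as protein-coding, Gm4988, which RefSeq lists so, and Gm42427 and Gm44250, which M21 leaves unclassified. RefSeq also lists as protein-coding Gm42427, the pseudogene Ndufb4c and the long noncoding RNAs Gm33989 and Gm46430, which were kept in their M21 classes. Just inside the threshold lay Gm10134, Gm46430 and 2810013P06Rik, with means of 10.2, 10.2 and 10.0 CPM. Just outside lay the pseudogenes Rpl19-ps11 and Tpt1-ps3 and the immunoglobulin gene Ighg1, with 9.80, 9.77 and 9.73 CPM. At group level, 71 members averaged at least 10 CPM in all 4 groups, 5 did so in 1 group only, and 55 reached 10 CPM in each of the 11 libraries.

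Tissue came from male mice aged 22 to 24 weeks that had received either a control diet (CD, 14% fat) or a high-fat diet (HFD, 60% fat) for 16 weeks from 6 weeks of age. Mice of every group carried floxed Hoip alleles (Hoip fl/fl; Hoip is Rnf31, the catalytic subunit of the complex that builds linear ubiquitin chains). WT mice were AdipoQ.Cre- and HoipA-KO mice were AdipoQ.Cre+, with Cre driven by the adiponectin promoter, so that the deletion was directed to mature adipocytes and other cells of the tissue kept the gene. There were 3 libraries per group, each from polyadenylated RNA of GWAT pooled from 3 mice, and WT CD replicate 3 was left out as in the deposited comparisons, which leaves 2 libraries of WT CD. The study asked how loss of HOIP in adipocytes changes GWAT on either diet.

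Long noncoding RNAs are transcripts without a recognized protein product. Some organize nuclear bodies, some host small nucleolar RNAs or microRNAs in their introns, and many lie beside or opposite a coding gene. Pseudogenes are copies of genes that have lost the original function, and copies of mitochondrial DNA inserted into nuclear chromosomes are a well-known kind. Reads from such a copy and from its source can be impossible to separate by sequence, and ribosomal RNA, which mostly lacks a poly(A) tail, enters poly(A)-selected libraries as carry-over that varies with the preparation.

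Library totals ranged from 30513500 to 60540260 estimated counts, the members took 1.74 to 5.99% of a library, and 3 counts, taken as the floor, corresponded to 0.0496 to 0.0983 CPM. The summed adipocyte markers were 22532 to 45132 CPM in the 5 WT libraries and 5319 to 9720 CPM in the 6 HoipA-KO libraries, whereas macrophage markers were 513 to 576 CPM in WT CD, 1756 to 5528 CPM in WT HFD and 7430 to 10541 CPM in HoipA-KO. Endothelial markers were 588 to 957 CPM in WT and 282 to 652 CPM in HoipA-KO. Fewer cells of a type and less RNA per cell cannot be told apart in such bulk samples. Epididymal epithelium markers reached 16004 CPM in WT CD replicate 2 and 1457 CPM in HoipA-KO HFD replicate 1, where Crisp1 made up 1453 CPM. Testis germ cell markers reached 10400 CPM in WT CD replicate 3, the library left out. Rnf31 itself passed no test by genotype, with a log2 fold change of -0.08 ± 0.14 on CD (SE, adjusted p = 0.654), and of 0.13 ± 0.12 for HFD-fed mice (adjusted p = 0.491), so whole-gene counts in bulk tissue do not check the genotype labels.

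The 30 pseudogenes took a smaller share of the library in HoipA-KO, 1.09% on average against 2.48% in WT. The difference in mean log2 share, averaged over both diets, was -1.22 (exact permutation test, two-sided, p = 0.005, adjusted p = 0.035 over the 7 classes). That p is the smallest that the 200 arrangements of labels within diets can give. The 5 WT libraries ranged from 1.51 to 3.47% and the 6 HoipA-KO libraries from 0.824 to 1.33%, without overlap. Nearly all of these counts lay in 6 pseudogenes on chromosome 1, which took 1.46 to 3.42% in WT and 0.750 to 1.27% in HoipA-KO. The other 24 pseudogenes together took 0.0453 to 0.0579% in WT and 0.0622 to 0.0742% in HoipA-KO, and 0.0441 to 0.0495% and 0.0497 to 0.0523% without Gpr137b-ps, which held most of that difference. It was not tested, and by gene 5 of the 24 rose and 5 fell on CD, with 1 rise and no fall on HFD. WT CD replicate 3, left out of these ranges, had 1.43% in the chromosome 1 pseudogenes and 0.0608% in the others. Among the other classes the differences were -1.17 for mitochondrial rRNA (p = 0.03, adjusted p = 0.07), -0.63 for small RNAs (p = 0.03, adjusted p = 0.07) and -0.36 for long noncoding RNAs (p = 0.06, adjusted p = 0.105), by the same exact permutation test. They were -0.81 for the nuclear rRNA (p = 0.4), whose mean share was higher in HoipA-KO (1.99%) than in WT (1.79%), -0.62 for the genes of other types (p = 0.385) and -0.18 for immunoglobulin genes (p = 0.7), by the same exact permutation test.

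**Figure D1:**
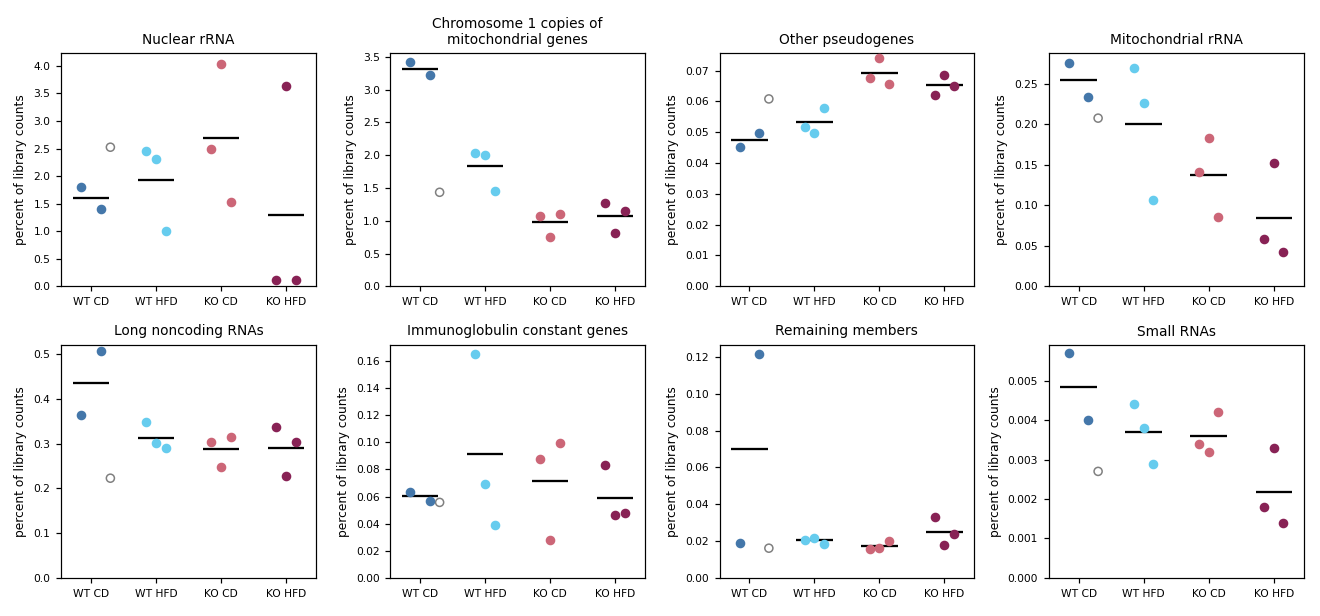
Share of all counts in a library (percent) taken by each class of member, with the pseudogenes drawn as 2 panels, for the 4 groups (KO, HoipA-KO). Points are libraries, bars are group means and open grey circles are WT CD replicate 3, which was left out of the means. The chromosome 1 copies lay at 1.46 to 3.42% in WT and at 0.750 to 1.27% in HoipA-KO.

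The 6 pseudogenes of chromosome 1 are a nuclear copy of a stretch of the mitochondrial genome, on the minus strand between chr1:24612407-24616197 (GRCm38, GENCODE M21). Their transcripts align over their full length with mt-Co1 (Gm29216), mt-Co2 (Gm28661), mt-Atp6 (Gm10925), mt-Co3 (Gm28437), mt-Nd3 (Gm28438) and mt-Nd4l (Gm10222), which encode subunits of cytochrome c oxidase, ATP synthase and NADH dehydrogenase. Identity was 100% for Gm28661, Gm10925, Gm28437 and Gm10222, 99.71% for Gm28438 and 98.78% for Gm29216. The first 60 bases of 3 pairs are shown because they hold every base that sets a pseudogene apart from its mitochondrial gene, next to a pair with none. Capitals mark the bases that differ.
Gm29216: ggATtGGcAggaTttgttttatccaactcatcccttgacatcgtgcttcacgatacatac
mt-Co1: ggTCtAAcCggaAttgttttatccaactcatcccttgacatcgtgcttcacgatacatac
Gm28438: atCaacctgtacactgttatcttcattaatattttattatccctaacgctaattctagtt
mt-Nd3: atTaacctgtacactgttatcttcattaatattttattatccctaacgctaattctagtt
Gm28661: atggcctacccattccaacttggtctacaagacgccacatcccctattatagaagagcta
mt-Co2: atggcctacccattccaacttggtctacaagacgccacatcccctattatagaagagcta
Counted from 1 at the 5′ end of the pseudogene transcript, with the mitochondrial base first, the differences were T3A, C4T, A6G, A7G, C9A and A13T in Gm29216 and T3C in Gm28438. Of all 100-base windows of a pseudogene, 96.7 to 100% occur unchanged in its mitochondrial gene. Nearly all reads of these genes therefore cannot be told apart from reads of the mitochondrial transcripts.

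All 6 of these pseudogenes fell in HoipA-KO on CD. Gm28661, the copy of mt-Co2, had 10265 and 9454 CPM in WT CD and 3833, 2595 and 3500 CPM in HoipA-KO CD, a log2 fold change of -1.62 ± 0.24 (SE, adjusted p = 0.00112, by the quasi-likelihood test of edgeR, adjusted after Benjamini and Hochberg). On HFD it had 6592, 6456 and 4945 CPM in WT and 4118, 2694 and 3817 CPM in HoipA-KO (log2 fold change -0.86 ± 0.22, adjusted p = 0.038). The groups did not overlap on either diet, and WT HFD lay below WT CD. Gm10222, the copy of mt-Nd4l, fell the most of the 6 on CD, from 759 and 631 CPM to 157, 68.2 and 168 CPM (log2 fold change -2.48 ± 0.34, adjusted p = 0.000789). Gm28438, the copy of mt-Nd3, was 717 and 696 CPM in WT CD and 214, 179 and 201 CPM in HoipA-KO CD, a fall of 1.87 ± 0.22 on the log2 scale (adjusted p = 0.000513), and on HFD it fell by 1.51 ± 0.20 (adjusted p = 0.00871). The falls on CD of Gm10925, Gm28437 and Gm29216 lay between -1.93 and -1.85 (adjusted p = 0.000785 to 0.00123). On HFD, Gm10925 fell by 1.01 ± 0.24 (adjusted p = 0.0283) and Gm10222 by 1.72 ± 0.31 (adjusted p = 0.0141), while Gm28437 and Gm29216 were at -0.73 ± 0.24 (adjusted p = 0.072) and -0.68 ± 0.27 (adjusted p = 0.115). Of 23 alternatives, the call on HFD held in 11 for Gm28661, 14 for Gm10925, 18 for Gm10222 and 23 for Gm28438. Leaving out a single library lost it in 7, 5, 3 and 0 fits, in that order.

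In WT, 3 of the 6 were called lower on HFD, namely Gm29216 (log2 fold change -1.11 ± 0.29, adjusted p = 0.0345), Gm28437 (-1.05 ± 0.26, adjusted p = 0.0288) and Gm10925 (-0.88 ± 0.26, adjusted p = 0.0479). The calls held in 10, 14 and 8 of 23 alternatives, in that order. They were lost in 6, 4 and 8 of those that left out a single library. None of the 6 passed the test between diets in HoipA-KO, where log2 fold changes lay between -0.14 and 0.15, or the test of the interaction of genotype and diet (adjusted p = 0.0909 to 0.503). Of the counts of each pair, the pseudogene held 12.2 to 21.5% for Gm29216, 72.2 to 81.0% for Gm28661, 64.3 to 78.4% for Gm10925, 43.6 to 65.6% for Gm28437, 76.2 to 85.6% for Gm28438 and 39.5 to 58.5% for Gm10222 over the 11 libraries. Summing each pseudogene with its mitochondrial gene, an alternative chosen after the data were seen, gave log2 fold changes of -2.46 to -1.63 on CD for the 6 pairs (adjusted p = 0.000463 to 0.00107). On HFD 5 of the 6 sums fell, and the sum of Gm28437 and mt-Co3 was at -0.70 ± 0.21 (adjusted p = 0.0591). For HFD against CD in WT, by the same edgeR test, the sums lay between -1.01 and -0.56. Those of Gm29216, Gm28661, Gm28437 and Gm10222 passed (adjusted p = 0.0291 to 0.0451). Those of Gm10925 (adjusted p = 0.0635) and Gm28438 (adjusted p = 0.115) did not, so which of the 6 passed changed with the summing. In the same libraries the summed adipocyte markers were lower in HoipA-KO, and their part in these falls was not tested.

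**Figure D2:**
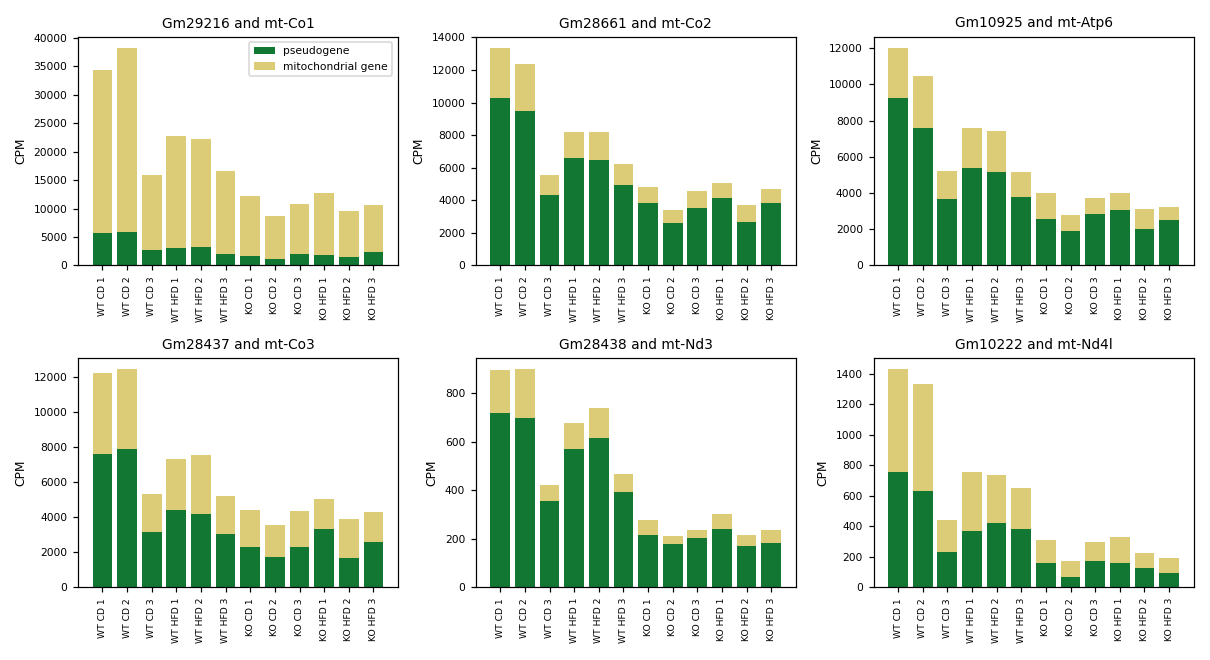
CPM of each chromosome 1 pseudogene (green), with that of the mitochondrial gene it matches stacked on top (yellow), for each of the 12 libraries, WT CD replicate 3 included (KO, HoipA-KO). For Gm28661 the pseudogene part was 10265 and 9454 CPM in WT CD replicates 1 and 2 and 2595 to 3833 CPM in HoipA-KO CD.

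The ribosomal RNAs varied widely between libraries of the same group. Rn18s-rs5, an 18S rRNA-related sequence, had 17934 and 13993 CPM in WT CD, 24564, 23183 and 10060 CPM in WT HFD, 24982, 40337 and 15340 CPM in HoipA-KO CD, and 1195, 36273 and 1148 CPM in HoipA-KO HFD. HoipA-KO HFD thus held both very low libraries and a very high one, and by genotype the log2 fold change was 0.74 ± 1.34 for CD-fed mice (adjusted p = 0.688) while HFD gave -0.52 ± 1.17 (adjusted p = 0.783). The mitochondrial rRNAs mt-Rnr1 and mt-Rnr2 had log2 fold changes of -1.09 ± 0.54 (adjusted p = 0.139) and -0.81 ± 0.68 (adjusted p = 0.369) on CD, and of -1.22 ± 0.50 (adjusted p = 0.13) and -1.30 ± 0.63 (adjusted p = 0.187) on HFD. The small RNA Rn7s1, a copy of the RNA of the signal recognition particle, ranged from 0 to 40.1 CPM, and the 0 in HoipA-KO HFD replicate 3 allows up to 0.058 CPM, for counting error only. None of the 3 rRNAs or the 2 small RNAs passed any of the tests.

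Among the members called, falls outnumbered rises in HoipA-KO on both diets, as they did over all genes tested on HFD. The chromosome 1 copies of mitochondrial genes gave 6 of the falls on CD and 4 of those on HFD. On CD, 11 of 107 members tested rose (10.3%) and 25 fell (23.4%) at an adjusted p under 0.05, against 18.9% and 18.8% of all 18427 genes tested, and 24.2% and 18.6% of the 9736 protein-coding genes with a mean of at least 10 CPM. On HFD 5 rose (4.67%) and 12 fell (11.2%), against 4.2% and 7.62% of all genes and 5.93% and 9.85% of the coding genes at that level. The median log2 fold change of the members was -0.19 on CD and -0.05 on HFD, beside -0.06 and 0.06 over all genes tested. By diet, 25 members passed on CD alone, 6 on HFD alone, 11 on both and 65 on neither. Groups of libraries did not overlap for 11 of 11 rises and 24 of 25 falls on CD, where the same held for 99.9% and 89.4% of all genes called (18.9% and 16.8% of all genes tested). On HFD it held for 5 of 5 and 12 of 12, beside 100% and 99.2% of all genes called (4.2% and 7.56% of all genes tested). Some calls read values that also chose the member. Gm10851 averaged at least 10 CPM in WT HFD alone, and 5031425E22Rik and 2810013P06Rik did so in WT CD alone. Ctcflos, A530053G22Rik, 2610016A17Rik, Gm10687, A530020G20Rik, Gm20300, 6530402F18Rik and Mpc1-ps did so in the WT groups alone. Gm20056, Gm10134 and Gm7336 did so in the HoipA-KO groups alone. Cep83os, Mpc1-ps and 2810013P06Rik would average under 10 CPM without WT CD replicate 2. The differences of all these genes from those groups are a description. Gm4988 and Gm42794 did not pass the filter on low counts and were not tested. The number on HFD ranged from 3 to 36 as single libraries were left out, with the lowest value without WT HFD replicate 1 and the highest without WT CD replicate 2. Of the named members' calls, 18 of 22 on CD passed in every fit that left out a single library, and only 2 of 15 on HFD did, those of Gm28438 and A530053G22Rik.

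**Figure D3:**
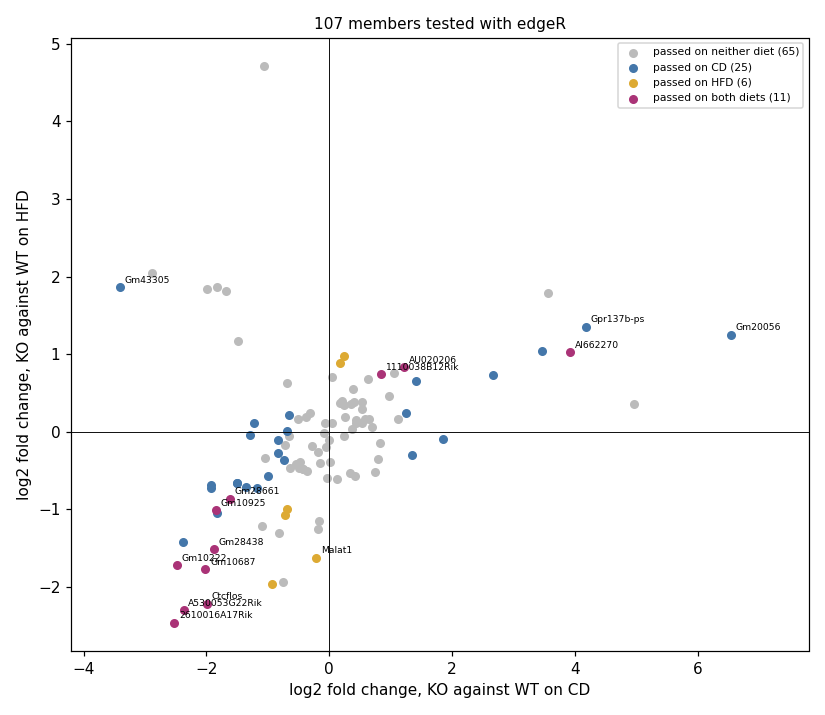
Log2 fold change of HoipA-KO (KO) against WT on CD (horizontal axis) and on HFD (vertical axis) for the 107 members tested, coloured by whether the adjusted p was under 0.05 on CD alone (25), on HFD alone (6), on both diets (11) or on neither (65). Labelled members in the lower left, such as 2610016A17Rik, fell on both diets, and Gm20056, at 6.53 on CD, lies farthest to the right.

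The largest rises in HoipA-KO on CD were those of the pseudogenes Gm20056 and Gpr137b-ps. Gm20056 averaged 27.8 CPM in HoipA-KO CD and 21.5 CPM in HoipA-KO HFD, against 0.300 CPM in WT CD and 8.91 CPM in WT HFD. It thus passed the rule through the HoipA-KO groups alone, so its rise is a description. Gm20056, which shares part of its sequence with Chp1 and lies 309 bases from Tm4sf19, had 0.185 and 0.414 CPM in WT CD and 28.6, 39.3 and 15.5 CPM in HoipA-KO CD (log2 fold change 6.53 ± 0.97, adjusted p = 0.00109). Tm4sf19, a tetraspanin-like membrane protein gene, rose by 8.14 ± 1.22 in the same comparison (adjusted p = 0.00112), whereas Chp1 fell by 0.61 ± 0.21 (adjusted p = 0.0434). Gpr137b-ps, a pseudogene of the lysosomal membrane protein gene Gpr137b, had 11.4 and 8.17 CPM in WT CD, 31.4, 46.6 and 84.3 CPM in WT HFD, 170, 219 and 155 CPM in HoipA-KO CD, and 111, 189 and 128 CPM in HoipA-KO HFD. It rose by 4.18 ± 0.54 on the log2 scale with CD (adjusted p = 0.000625), while the HFD value was 1.35 ± 0.40 (adjusted p = 0.056). Gpr137b, the parent gene, moved with it at 4.29 ± 0.54 (adjusted p = 0.00059) on CD, and reads of the pair may be shared. On HFD the WT and HoipA-KO libraries of Gpr137b-ps did not overlap either.

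AI662270, a long noncoding RNA beside the Schlafen gene Slfn3, had 2.81 and 3.37 CPM in WT CD, 13.4, 18.2 and 26.6 CPM in WT HFD, 45.8, 55.6 and 40.3 CPM in HoipA-KO CD, and 34.9, 44.4 and 44.7 CPM in HoipA-KO HFD. It rose by 3.92 ± 0.36 on CD (adjusted p = 0.000452), by 1.02 ± 0.27 on HFD (adjusted p = 0.0394), and with HFD in WT by 2.60 ± 0.33 (adjusted p = 0.00617), so WT HFD lay between WT CD and HoipA-KO. Gm36161, which shares sequence with the coding gene Gm21188, had 6.38 and 3.65 CPM in WT CD, 14.3, 16.9 and 29.3 CPM in WT HFD, 34.7, 28.4 and 37.2 CPM in HoipA-KO CD and 38.2, 27.7 and 40.9 CPM in HoipA-KO HFD. It rose by 2.67 ± 0.37 on CD (adjusted p = 0.000841), while on HFD the genotypes overlapped (0.73 ± 0.30, adjusted p = 0.128). AU020206, a transcript from between coding genes near Akap13, was at 14.9 and 14.1 CPM in WT CD and at 40.4, 28.1 and 35.8 CPM in HoipA-KO CD, a rise of 1.22 ± 0.20 (adjusted p = 0.00183), with 0.83 ± 0.18 on HFD (adjusted p = 0.0222). Gvin-ps7, a pseudogene of the interferon-inducible very large GTPases named here after its values were seen, rose by 1.85 ± 0.30 on CD (adjusted p = 0.00155) and was at -0.09 ± 0.25 on HFD (adjusted p = 0.813). Of the 5 members of the list of immune long noncoding RNAs, AI662270 and AU020206 rose on both diets, and Neat1, AW112010 and Gm12840 passed neither test. The call on HFD held in 15 of 23 alternatives for AI662270 and in 18 for AU020206. It was lost in 5 and 3 of those that left out a single library. On CD both calls held in all 23. In the same libraries the summed macrophage markers were higher in HoipA-KO and in WT HFD than in WT CD, and their part in these rises was not tested.

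**Figure D4:**
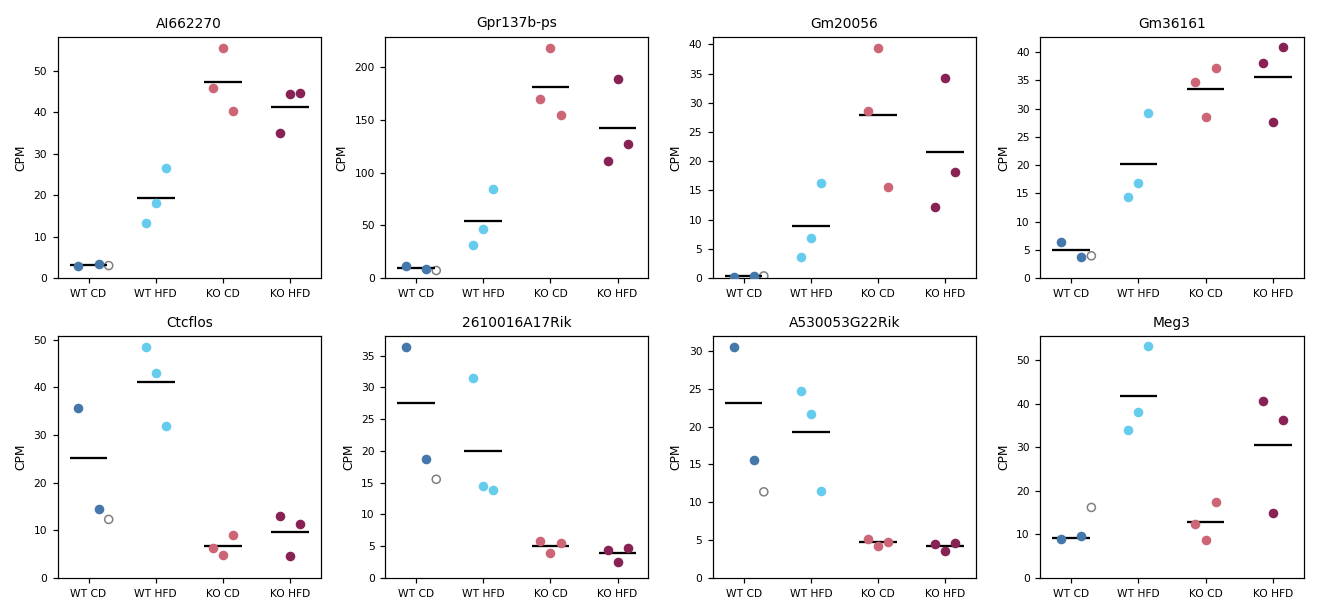
CPM of 8 members in each library of the 4 groups (KO, HoipA-KO). Points are libraries, bars are group means and open grey circles are WT CD replicate 3, which was left out of the means. AI662270 lay at 2.81 and 3.37 CPM in WT CD and at 40.3 to 55.6 CPM in HoipA-KO CD, while 2610016A17Rik lay at 36.3 and 18.7 CPM in WT CD and at 3.93 to 5.74 CPM in HoipA-KO CD.

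Of the 24 pseudogenes elsewhere, 13 shared at least 50% of their 100-base windows with 1 coding gene. On CD, pseudogene and parent both passed in the same direction for 4 of the 13 pairs (Ndufb4c, Gpx4-ps2, Mpc1-ps and Znf41-ps), the pseudogene alone for 1 (Gm7336, with Gapdh) and neither for 8. On HFD both passed for 1 pair (Rps6-ps4), the parent alone for 1 (Mpc1) and neither for 11. Gm15500, with 99.9% of its windows in Rpl5, was at 0.63 ± 0.27 on CD (adjusted p = 0.0894) and Rpl5 at 0.02 ± 0.27 (adjusted p = 0.967). On CD, Mpc1-ps fell by 1.18 ± 0.25 (adjusted p = 0.00628) and Mpc1, a subunit of the mitochondrial pyruvate carrier, by 1.20 ± 0.21 (adjusted p = 0.00253). Mpc1-ps would average 9.92 CPM without WT CD replicate 2, under the threshold, so its fall is a description. Gpx4-ps2 fell by 1.00 ± 0.25 (adjusted p = 0.0127) and Gpx4, which reduces lipid peroxides, by 0.93 ± 0.23 (adjusted p = 0.011). Ndufb4c fell by 0.74 ± 0.16 (adjusted p = 0.00619) and Ndufb4, a subunit of NADH dehydrogenase, by 0.90 ± 0.16 (adjusted p = 0.00287). Znf41-ps rose by 1.34 ± 0.41 (adjusted p = 0.0278) and Zfp991 by 2.05 ± 0.34 (adjusted p = 0.00178), whereas Gm7336 rose by 1.26 ± 0.32 (adjusted p = 0.0143) and Gapdh was at 0.62 ± 0.25 (adjusted p = 0.0743). Gm7336 averaged at least 10 CPM in the HoipA-KO groups alone, so its rise is a description too. These pseudogenes were named after their values were seen, and reads of each pair may be shared. On HFD, Rps6-ps4 had 13.4, 11.5 and 11.5 CPM in WT and 22.8, 22.8 and 25.6 CPM in HoipA-KO, a rise of 0.89 ± 0.19 (adjusted p = 0.0234), and the ribosomal protein gene Rps6, with which it shares all windows, rose by 0.60 ± 0.17 (adjusted p = 0.0471). The remaining calls on CD were rises of Gm10134 and Gm21860 and falls of Rps4l, Gm21926, Firre, Bc1, Gm20300, Cep83os, A530020G20Rik, 5031425E22Rik, 2810013P06Rik, Zrsr1 and Gm43305. The call of Gm21860 (3.46, adjusted p = 0.0482) held in 10 of 23 alternatives and was lost in 7 of those that left out a single library, where it was 2.41 without HoipA-KO CD replicate 3. On HFD the remaining calls were falls of Gm44250 and 6530402F18Rik.

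A set of long noncoding RNAs fell in HoipA-KO on both diets, namely A530053G22Rik, 2610016A17Rik, Ctcflos and Gm10687. Each averaged at least 10 CPM in the WT groups alone, as did A530020G20Rik. Their values in WT also chose them, so these falls are a description. Of 23 alternatives, the call on HFD held in 23 for A530053G22Rik, 22 for 2610016A17Rik, 19 for Ctcflos and 17 for Gm10687. Leaving out a single library lost that of 2610016A17Rik in 1 fit and those of Ctcflos and Gm10687 in 4 each. A530053G22Rik had 30.6 and 15.6 CPM in WT CD and 5.13, 4.18 and 4.75 CPM in HoipA-KO CD (log2 fold change -2.37 ± 0.37, adjusted p = 0.0013), and 24.7, 21.6 and 11.5 CPM in WT HFD and 4.47, 3.50 and 4.56 CPM in HoipA-KO HFD (-2.30 ± 0.35, adjusted p = 0.00911). 2610016A17Rik, which lies 158 bases from the transcription factor gene Dmrt2, fell by 2.52 ± 0.43 with CD (adjusted p = 0.00196), while HFD gave -2.47 ± 0.40 (adjusted p = 0.0111). Dmrt2 fell on CD (-2.38 ± 0.62, adjusted p = 0.0146) and was at -1.83 ± 0.57 on HFD (adjusted p = 0.0642). Ctcflos, which lies opposite Ctcfl, had 35.7 and 14.6 CPM in WT CD, 48.5, 42.9 and 31.9 CPM in WT HFD, 6.20, 4.89 and 9.06 CPM in HoipA-KO CD and 13.1, 4.53 and 11.4 CPM in HoipA-KO HFD. It fell by 2.00 ± 0.46 with CD (adjusted p = 0.00899), and HFD gave -2.22 ± 0.44 (adjusted p = 0.0172), on the log2 scale. Without WT CD replicate 1, the value of Ctcflos on CD was -1.06 (adjusted p = 0.0936) and that of A530020G20Rik, -2.38 with all 11 libraries, was -1.63 (adjusted p = 0.0574). Gm10687, opposite the cell adhesion gene Mcam, fell by 2.02 ± 0.42 with CD (adjusted p = 0.00525) while HFD gave -1.77 ± 0.39 (adjusted p = 0.0237), and Gm10851, opposite the glycolysis regulator Pfkfb3, was at -1.96 ± 0.49 on HFD (adjusted p = 0.0348), against the only group in which it averaged 10 CPM, and at -0.93 ± 0.52 on CD (adjusted p = 0.183). On CD the antisense partners Mcam and Pfkfb3 fell by 1.72 ± 0.49 and 2.18 ± 0.38 (adjusted p = 0.0209 and 0.0023). In that comparison Gm10687 passed the test and Gm10851 did not. The strand setting of the counting was not given in the sources used here. The summed adipocyte markers were lower in HoipA-KO, as were the endothelial markers but with overlap (282 to 652 CPM against 588 to 957 CPM in WT), and the part of either in these falls was not tested.

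The promoters of Ctcflos and A530053G22Rik are shown because, of the 4 long noncoding RNAs that fell on both diets, these held a motif searched for. The promoters of 2610016A17Rik and Gm10687, the other two, held none. Both are from RefSeq (GRCm38.p6), on chr2:173124499-173124798 (plus strand) and chr6:60403658-60403957 (minus strand), and run from 250 bases before to 50 after a transcript start. Capitals mark the motifs found. Both hold the C/EBP letters TTGCNNCA on the other strand. Ctcflos also holds those of AP-1, TGANTCA, which read alike on either strand. Last, it holds those of the TATA box, TATAAA.
Ctcflos: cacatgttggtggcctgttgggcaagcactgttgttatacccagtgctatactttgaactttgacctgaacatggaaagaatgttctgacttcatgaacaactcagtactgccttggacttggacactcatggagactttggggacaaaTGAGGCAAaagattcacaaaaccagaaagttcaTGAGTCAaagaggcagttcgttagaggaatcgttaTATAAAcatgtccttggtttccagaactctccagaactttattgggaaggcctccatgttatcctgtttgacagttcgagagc
A530053G22Rik: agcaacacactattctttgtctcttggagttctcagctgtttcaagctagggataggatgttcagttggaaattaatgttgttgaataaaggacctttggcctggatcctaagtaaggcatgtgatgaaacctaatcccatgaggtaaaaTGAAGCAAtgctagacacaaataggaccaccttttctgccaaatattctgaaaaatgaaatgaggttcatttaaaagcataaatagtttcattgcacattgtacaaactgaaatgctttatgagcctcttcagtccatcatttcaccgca
The letters TTGCNNCA, on either strand, occurred in 11.43% of all 32851 RefSeq promoters of the same length, the AP-1 letters in 7.81% and those of the TATA box in 13.62%. Of 54 promoters matched to 47 members, 6, 1 and 13 held them, and the PU.1 motif GAGGAAG and the ISRE core motif occurred in 5 and 2, against 13.63% and 3.44% of all promoters. The 13 count some members more than once, through almost identical windows of Gm20559 and of 1110038B12Rik. A chromosome left out of the 54 was kept in the 32851. Among members with a promoter, 3 of 13 that fell on CD and 2 of 7 that fell on HFD held the C/EBP letters. Of those that rose, 0 of 3 on CD and 0 of 3 on HFD held them. The PU.1 letters occurred in 1 member of each of these sets, and the TATA box letters in 3, 1, 1 and 1, in the same order. Such matches are descriptions of these letters in these windows.

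Several well-known long noncoding RNAs passed the test in 1 comparison or in none. Malat1, which lies in nuclear speckles, had 389 and 254 CPM in WT CD and 255, 372 and 229 CPM in HoipA-KO CD (log2 fold change -0.21 ± 0.38, adjusted p = 0.692), and 560, 498 and 457 CPM in WT HFD and 200, 208 and 107 CPM in HoipA-KO HFD, a fall of 1.62 ± 0.35 (adjusted p = 0.0234). The call of Malat1 on HFD held in 19 of 23 alternatives and was lost in 4 that left out a single library. The interaction did not pass the test for Malat1 (-1.42 ± 0.52, adjusted p = 0.15). Neat1, the scaffold of paraspeckles, had a log2 fold change of -0.48 ± 0.42 for CD (adjusted p = 0.395) while that for HFD was -0.39 ± 0.38 (adjusted p = 0.503). Among 10 small nucleolar RNA host genes, 1110038B12Rik rose with CD (0.84 ± 0.18, adjusted p = 0.0067) as well as HFD (0.74 ± 0.16, adjusted p = 0.0237), 2410006H16Rik rose on HFD (0.97 ± 0.22, adjusted p = 0.0272) and Snhg18 fell on CD (-0.66 ± 0.23, adjusted p = 0.0442). The call of Snhg18 held in 14 of 23 alternatives, over which its value was -0.88 to -0.03, and without WT CD replicate 1 it was -0.45 (adjusted p = 0.235). On HFD the calls of 1110038B12Rik and 2410006H16Rik each held in 16 of 23 alternatives, and each was lost in 4 that left out a single library. Gas5, Zfas1, Snhg1, Snhg5, Snhg6, Snhg8 and Snhg12 passed no test by genotype. Norad, which binds Pumilio proteins, was at 0.40 ± 0.20 with CD (adjusted p = 0.135) while HFD gave 0.39 ± 0.18 (adjusted p = 0.164). The microRNA hosts Mir22hg and Mir100hg and the imprinted Peg13 passed no test by genotype or diet.

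The imprinted Meg3 and Rian, neighbours on chromosome 12, rose with HFD in WT. Meg3 had 8.99 and 9.50 CPM in WT CD and 34.0, 38.0 and 53.2 CPM in WT HFD (log2 fold change 2.12 ± 0.38, adjusted p = 0.00919), and Rian had 6.79 and 7.62 CPM in WT CD and 22.6, 26.8 and 38.3 CPM in WT HFD (1.98 ± 0.33, adjusted p = 0.00748). In HoipA-KO, Meg3 had 12.4, 8.57 and 17.4 CPM on CD and 40.6, 14.9 and 36.3 CPM on HFD, so the diets overlapped. Rian had 9.72, 15.6 and 12.3 CPM on CD and 34.4, 16.98 and 22.9 CPM on HFD, without overlap, at a log2 fold change of 0.83 ± 0.28 that did not pass the test. Neither gene differed by genotype at an adjusted p under 0.05. The call of Meg3 was lost without WT CD replicate 2 (2.06, adjusted p = 0.0544), and neither gene passed with the fit of these 2 groups alone.

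HFD changed 16 members in WT, 8 higher (7.48%) and 8 lower (7.48%), against 9.35% and 5.47% of all genes tested and 11.5% and 4.81% of the coding genes at that level. The 8 that rose were AI662270, Gm36161, AU020206, Meg3, Rian, Gpr137b-ps, Gvin-ps7 and Gm20056. The 8 that fell were Gm29216, Gm28437, Gm10925, Gm21926, Gm43305, 5031425E22Rik, 2810013P06Rik and Zrsr1, an imprinted gene related to a splicing factor subunit. The median log2 fold change of members was -0.09 and that of all genes 0.0036. Groups did not overlap for 8 of the 8 rises and 7 of the 8 falls, beside 99.9% and 78.8% of all genes called (9.34% and 4.31% of all genes tested). In HoipA-KO, no member and no gene passed (0% of all genes, higher or lower, and 0% of the coding genes). At an unadjusted p under 0.05 there were 3 members and 415 of all genes, and DESeq2's Wald test called no member there. The effect of genotype differed by diet for 6 members, 1 higher (0.935%) and 5 lower (4.67%), against 0.331% and 3.58% of all genes and 0.257% and 4.55% of the coding genes. They were 2810013P06Rik (1.34 ± 0.29), which averaged 10 CPM in WT CD alone, and, in the other direction, Gm20056, AI662270, Gpr137b-ps, Gvin-ps7 and Gm36161. Gm20056 averaged 10 CPM in the HoipA-KO groups alone. For AI662270 the interaction was -2.90 ± 0.42 (adjusted p = 0.0256). With the groups compared fitted alone, none of the 107 members passed between diets in WT, and leaving out single libraries gave 5 to 40 calls there and 0 to 27 for the interaction, the lowest without WT CD replicate 2 and the highest without WT CD replicate 1.

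Immunoglobulin constant region genes, which encode the constant parts of antibodies, ranged widely between libraries and passed no test. Ighm had 565 and 287 CPM in WT CD and 495, 220 and 506 CPM in HoipA-KO CD (log2 fold change -0.16 ± 0.54, adjusted p = 0.835). Igha had 1.27 and 8.78 CPM in WT CD and 50.1, 3.96 and 126 CPM in HoipA-KO CD (3.57 ± 1.66, adjusted p = 0.115), so the groups overlapped. Summed markers of B and plasma cells were 184 to 287 CPM in WT and 227 to 286 CPM in HoipA-KO.

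A group of 9 members stood out in WT CD replicate 2 and was chosen after the values were seen, as those highest there and at least 5 times WT CD replicate 1. They were the long noncoding RNAs Gm43305, Gm42031, Gm46620, Gm4316, Gm49980 and Gm42794, and Gm42427, Gm4988 and Ighg3. Gm43305 had 1563 CPM in that library, 31.6 CPM in WT CD replicate 1, 352 CPM in HoipA-KO HFD replicate 1 and 29.7 to 95.2 CPM in the other 8 libraries. Gm4988 had 625 CPM there and at most 0.0208 CPM elsewhere, and Gm42794 had 165 CPM there and at most 0.0625 CPM in the other 10 libraries. For 6 of the 9, HoipA-KO HFD replicate 1 held the next highest value. Both libraries are those with the highest epididymal markers, at 16004 and 1457 CPM. In HoipA-KO HFD replicate 1 nearly all of that sum was Crisp1 (1453 CPM). Adam7 was 2392 CPM in WT CD replicate 2, 2.33 CPM in HoipA-KO HFD replicate 1 and 25.3 CPM in HoipA-KO HFD replicate 3. Skeletal muscle markers were also highest in HoipA-KO HFD replicate 1, at 162 CPM. The part of these tissues in the values of the 9 members was not tested. Gm43305 was the only one of the 9 that passed a test (HoipA-KO against WT on CD, -3.40 ± 1.08, adjusted p = 0.0337, and HFD against CD in WT, -4.11 ± 1.11, adjusted p = 0.0376), and its value in WT CD replicate 1 lay below every HoipA-KO library. Without WT CD replicate 2, 6 of the 109 members would have had a mean under 10 CPM.

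**Figure D5:**
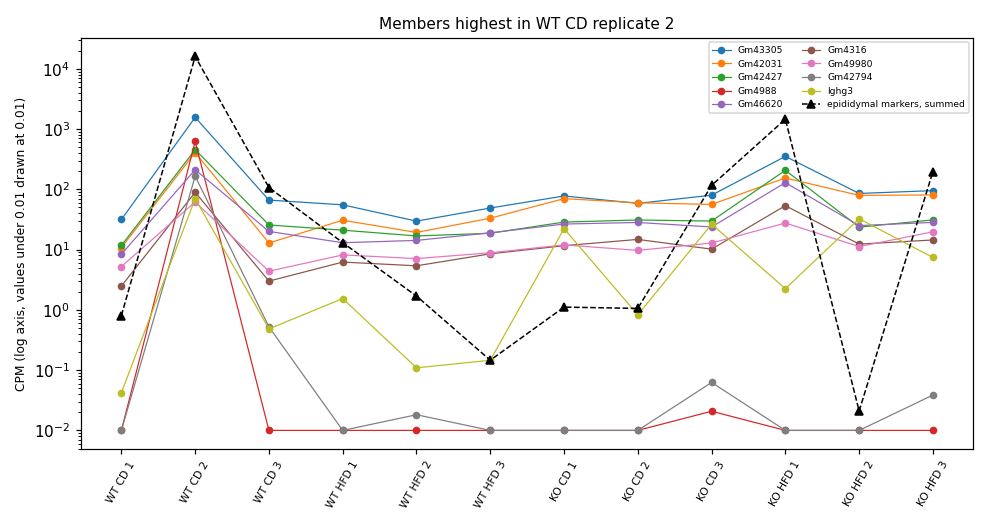
CPM (log axis, values under 0.01 drawn at 0.01) in each of the 12 libraries for the 9 members that were highest in WT CD replicate 2, with the summed epididymal markers as a dashed line (KO, HoipA-KO). Gm43305 lay at 1563 CPM in WT CD replicate 2 and at 352 CPM in HoipA-KO HFD replicate 1, where the markers were 16004 and 1457 CPM.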

How the data were processed

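GWAT libraries were made from polyadenylated RNA with a stranded kit. The authors trimmed reads with Trim Galore 0.6.7, aligned them with STAR 2.7.10a and estimated counts per gene with Salmon 1.5.2, and they deposited these estimated counts without normalization, for all genes and for protein-coding genes. GRCm38 is named in the submitters' processing notes, while the methods name a human assembly, and the identifiers are of mouse genes. How reads matching several places were assigned was not given in the sources used here. The deposited tables of the authors' own comparisons hold DESeq2 results (DESeq2 1.38.1), and none of their values was used.

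The members and the gene lists were chosen with earlier results of these data known. Estimated counts were rounded, filtered with filterByExpr (10 counts), normalized by TMM and fitted in 1 model of the 4 groups over 11 libraries. Each contrast was tested by quasi-likelihood in edgeR, with p adjusted after Benjamini and Hochberg over the 18427 genes tested, at 0.05, in R 4.3.3 with edgeR 4.0.16 and limma 3.58.1. Log2 fold changes use a prior count of 0.125. Class shares were compared by an exact permutation test over libraries within diets. Replicates are pools of 3 mice, so p-values measure the spread between pools. Of the 109 members, 106 were matched to GENCODE M21 by identifier. Named members were those of the lists, the 10 highest, up to 5 rises and 5 falls of each contrast with non-overlapping groups, and those at the threshold. Promoters, 300 bases long, came from RefSeq (GRCm38.p6). Scripts were tested on simulated counts.

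Alternatives were other scalings, other filters, all 12 libraries, other pairs of WT CD libraries, the groups compared alone, a replicate block, DESeq2 1.42.0, stricter thresholds and leaving out each library. No library pair differed by less than sampling noise.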

Additional observations from a re-analysis of the deposited data

Results flagged for a closer look

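The effect of genotype differed between diets for 6 members by the test of the interaction of genotype and diet (on the log2 scale, edgeR's quasi-likelihood test, adjusted p = 0.0256 to 0.0479). Of 107 members tested, 0.935% were higher and 4.67% lower, against 0.331% and 3.58% of all genes tested. Among the coding genes at that level it was 0.257% and 4.55%, so the share of negative values was near that of other genes. The interaction was -5.29 for Gm20056, -2.90 for AI662270, -2.83 for Gpr137b-ps, -1.94 for Gvin-ps7 and -1.94 for Gm36161. All 5 rose on CD, and of them AI662270 also passed on HFD (1.02), where the others were at 1.25 (Gm20056), 1.35 (Gpr137b-ps), -0.09 (Gvin-ps7) and 0.73 (Gm36161). Gm20056 averaged 10 CPM in the HoipA-KO groups alone. For 2810013P06Rik the interaction was 1.34, with a fall on CD and a value of 0.12 on HFD, and this gene averaged 10 CPM in WT CD alone. In the 5 genes with negative values WT HFD lay above WT CD, and of the 6, the 5 that were followed under each alternative (all but Gvin-ps7) no longer passed without WT CD replicate 2 (adjusted p = 0.0887 to 0.129).

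WT CD replicate 3, which no comparison used, had 348 genes outside the coding table, other than the members, at 10 CPM or more, where the other 11 libraries had 6 to 66. Testis germ cell markers reached 10400 CPM in that library and at most 418 CPM in the others.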

How the results depend on the processing

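The number of members passing the test on CD, 36, was 31 to 44 as single libraries were left out, and all other settings kept it within 1.5 times. The count for genotype on HFD, 17, became 5 with all 12 libraries, 6 with WT CD replicates 1 and 3, 28 with only the groups compared, 37 with DESeq2's Wald test, 2 at an adjusted p under 0.01, 11 with a log2 change over 1 as well, and 3 to 36 as single libraries were left out, lowest without WT HFD replicate 1 and highest without WT CD replicate 2. The count for diet in WT, 16, became 10 with WT CD replicates 1 and 3, 33 with replicates 2 and 3, 0 with only the groups compared, 34 with DESeq2, 5 at an adjusted p under 0.01, and 5 to 40 as single libraries were left out. The count for the interaction, 6, became 3 with WT CD replicates 1 and 3, 21 with replicates 2 and 3, 2 with a replicate block, 19 with DESeq2, 0 at an adjusted p under 0.01, and 0 to 27 as single libraries were left out. Both of these were lowest without WT CD replicate 2 and highest without WT CD replicate 1. For diet in HoipA-KO it was 0 in every setting run. Without both libraries over 1000 CPM of epididymal markers, a setting chosen after the data were seen, the counts were 48 (genotype on CD), 35 (genotype on HFD), 4 (diet in WT) and 0 (interaction). Where a group was left with 1 library, it was assumed to vary like the other groups. The causes were not tested.

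The replicate numbers do not pair the libraries: 5 of 15 same-number pairs had a correlation of deviations over 0.1, with a range of -0.477 to 0.372. With the replicate block the counts were 34 on CD, 19 on HFD and 11 for diet in WT, and the pseudogene share difference was -1.26 (exact permutation test, p = 0.0625, the smallest that the 32 sign changes allow, adjusted p = 0.146), so that this design could not pass. As single libraries were left out it was -1.29 to -1.13, and the mitochondrial rRNA difference was -1.44 to -0.97, the small RNAs -0.80 to -0.50, the nuclear rRNA -1.64 to -0.39, the long noncoding RNAs -0.47 to -0.24, immunoglobulin genes -0.43 to 0.106 (positive also at 0.0951 without WT HFD replicate 1) and the other types -1.29 to 0.0544 (without WT CD replicate 2). Of the named members' calls, 16 of 22 on CD, 2 of 15 on HFD, 0 of 12 for diet in WT and 0 of 5 for the interaction held in every alternative, and among 1234 values of these calls none changed direction and 243 no longer passed. Counts of 2 or 3 libraries per group, and depth of 30513500 to 60540260 counts, limit what could be shown.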
